A study of Mus musculus with 50 samples.

Results

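The contrast described here sets the effect of the gtf2i/gtf2i genotype beside the effect of the ird1/ird1 genotype in whole brains of E13.5 mouse embryos. It is the log2 change from wild type to gtf2i/gtf2i, minus the log2 change from wild type to ird1/ird1, computed for each of 11708 genes. It rests on 12 of the 18 RNA sequencing libraries of a series of 50 samples: 3 gtf2i/gtf2i brains and 3 wild-type brains of the gtf2i comparison, 3 ird1/ird1 brains and 3 wild-type brains of the ird1 comparison. All embryos carry the strain label FVB/ANTJ. The labels name only the gtf2i allele in the gtf2i groups and only the ird1 allele in the ird1 groups. They do not describe the edits and do not say whether a group carries another mutation. A positive difference means that the gene stood higher after gtf2i/gtf2i, relative to its own wild type, than after ird1/ird1. The question of the contrast is which responses the 2 genotypes share and which are distinct. The remaining 6 libraries carry a single gtf2i or ird1 allele in the label, are called heterozygous here, and entered the fit so that all 6 groups shared 1 estimate of the spread.

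Gtf2i encodes TFII-I, and Gtf2ird1 encodes a related protein with the same type of repeated helix-loop-helix-like domain. Both are DNA-binding transcription regulators, and their genes lie next to each other in the segment that is deleted in Williams syndrome, a developmental disorder with a distinctive social and cognitive profile. The GTF2IRD1 protein is known to bind the sequence GGATTA and to repress its own gene through such sites. At mid-gestation the cortical wall holds dividing radial glia and young excitatory neurons, which switch on basic helix-loop-helix factors such as NEUROD2 and NEUROD6. Such factors bind E-boxes, the sequence CANNTG.

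The promoter of Gtf2ird1 is shown because this gene rose in both homozygous genotypes. The window searched was the 250 bases before the gene start that RefSeq lists on assembly GRCm38.p6. That start lies inside the annotated gene (chr5:134357661-134456867, minus strand), so the bases upstream of the gene (chr5:134456868-134456966) are printed whole and the 2 sites nearer the start with their flanks (chr5:134456807-134456832 and chr5:134456770-134456795). Capitals mark GGATTA or its reverse complement.
Gtf2ird1 upstream: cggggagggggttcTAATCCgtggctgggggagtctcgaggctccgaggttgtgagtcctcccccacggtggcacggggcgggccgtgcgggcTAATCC
Gtf2ird1 site at 106 to 101: cgcggggctgGGATTAgggccggggc
Gtf2ird1 site at 69 to 64: aatcttactgGGATTAcagaacaaag
The window held 4 copies, at 236 to 231, 157 to 152, 106 to 101 and 69 to 64 bases before the start. In windows of the same length, at least 1 copy stood in 6.25% of all 32851 listed promoters and in 4.79% of the 11763 promoters of tested genes. Gtf2ird1 was the 1 window among those 11763 with 4 copies. The corresponding window of Gtf2i held 0 copies. It comes from a listed promoter (chr5:134314711-134315010, minus strand) inside the annotated gene, which ends at 134317678. The bases upstream of that gene were not searched. The promoters of Neurod2 (chr11:98329646-98329895, minus strand) and Neurod6 (chr6:55681264-55681513, minus strand) are shown because these cortical factors were lower in gtf2i/gtf2i and were called in the difference of effects. Here capitals mark CANNTG, which reads the same on both strands.
Neurod2 promoter: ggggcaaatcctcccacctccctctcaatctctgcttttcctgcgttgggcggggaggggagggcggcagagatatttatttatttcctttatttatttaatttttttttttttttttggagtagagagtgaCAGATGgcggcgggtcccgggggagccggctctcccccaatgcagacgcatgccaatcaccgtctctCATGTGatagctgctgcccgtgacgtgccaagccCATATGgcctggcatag
Neurod6 promoter: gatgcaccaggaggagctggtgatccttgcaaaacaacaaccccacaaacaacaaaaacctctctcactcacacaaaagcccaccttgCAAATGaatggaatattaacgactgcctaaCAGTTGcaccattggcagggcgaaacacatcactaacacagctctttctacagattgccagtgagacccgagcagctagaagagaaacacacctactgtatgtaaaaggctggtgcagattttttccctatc
Neurod2 had 3 matches and Neurod6 had 2, and at least 1 match stood in 66.2% of all promoters and 56.2% of those of tested genes. A promoter was listed for 15 of the 20 genes called in the difference. These genes had 21 listed promoters, of which 12 (57.1%) held CANNTG, 0 held GGATTA and 0 held CACGTG, found in 8.29% of tested promoters. A match is a string of letters and not a measured binding site.

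Of the homozygous groups, Gtf2i was lower in gtf2i/gtf2i alone, and Gtf2ird1 was higher in both. These are the genes of the alleles in the labels. For Gtf2i in gtf2i/gtf2i and Gtf2ird1 in ird1/ird1, a direct result of the edit and a response cannot be told apart. Gtf2i (ENSMUSG00000060261, chr5:134237832-134317678) stood at 598, 658 and 615 CPM (counts scaled to a common library size) in the wild type of the gtf2i comparison and at 83.3, 82.2 and 81.8 CPM in gtf2i/gtf2i. In the ird1 comparison it stood at 597, 641 and 604 CPM in wild type and at 592, 622 and 583 CPM in ird1/ird1. All 3 gtf2i/gtf2i libraries lay far below every other library, while the ird1/ird1 libraries overlapped their wild type. The difference of effects for Gtf2i was -2.88 on the log2 scale (SE 0.0989, 95% interval from -3.09 to -2.68, adjusted p = 3.89e-14).

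Gtf2ird1 (ENSMUSG00000023079) rose in both genotypes. It stood at 97.9, 84.1 and 95.1 CPM in the wild type of the gtf2i comparison and at 286, 270 and 245 CPM in gtf2i/gtf2i. In the ird1 comparison it stood at 90.5, 114 and 90.4 CPM in wild type and at 219, 223 and 227 CPM in ird1/ird1. Both homozygous groups lay above all wild-type libraries, and every gtf2i/gtf2i library lay above every ird1/ird1 library. The log2 effects were 1.53 (SE 0.0922, adjusted p = 1.31e-09) in the first genotype and 1.19 (SE 0.0928, adjusted p = 3.23e-07) in the second, and their mean was 1.36 (adjusted p = 1.59e-11). The difference of the effects on Gtf2ird1 was 0.34 (95% interval from 0.07 to 0.61) and was not called, with an unadjusted p of 0.0165 and an adjusted p of 0.296. Over 23 alternative analyses its adjusted p ran from 0.0678 to 0.616. A count of transcripts does not tell how much protein, or of which form, was made. Gtf2ird2 (chr5:134182557-134218146), the remaining gene of the family measured here, was not called, with effects of 0.07 and -0.01 (gtf2i/gtf2i first, here and wherever a pair of effects is given) and an interval of the difference from -0.25 to 0.41.

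**Figure D1:**
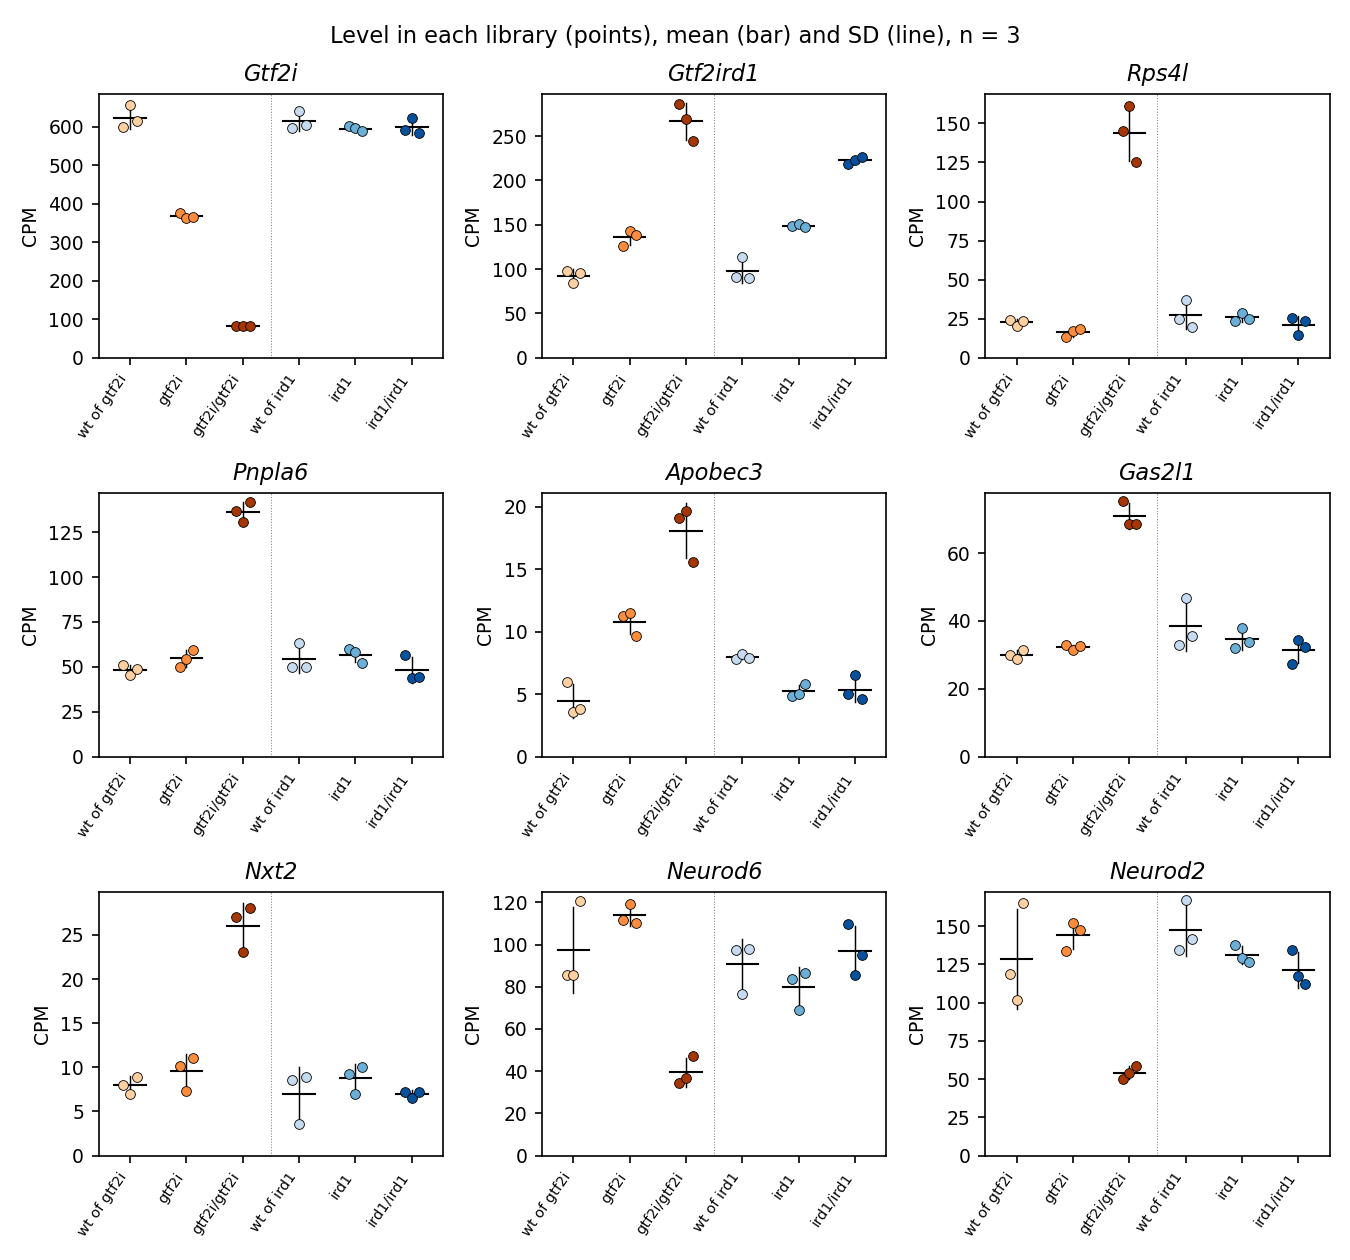
CPM of 9 genes (vertical axes from 0) in the 18 libraries, in 6 groups of 3 on the horizontal axis; points are libraries, bars are means and lines are SD. Gtf2i is low in gtf2i/gtf2i (81.8 to 83.3 CPM), Gtf2ird1 is high in both homozygous groups, and the other 7 genes stand apart in gtf2i/gtf2i.

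Across all genes, 20 passed the test of the difference at an adjusted p under 0.05, which is 0.171% of the 11708 tested. Of these 15 were higher (0.128%) and 5 lower (0.0427%). Before adjustment 1517 genes (13%) had a p under 0.05, 759 higher (6.48%) and 758 lower (6.47%). A fit with a replicate block, the number at the front of each sample title, called 83 genes, 45 of them higher, and these included all 20. Single libraries moved the count: 723 genes passed when gtf2i/gtf2i replicate 3 was left out (280 higher), 13 without wild-type replicate 2 of the gtf2i comparison, 12 without gtf2i/gtf2i replicate 2, and 13 and 12 without ird1/ird1 replicates 1 and 3.

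The called genes had their larger effects in gtf2i/gtf2i. This held for all 20, with a median of 0.82 against 0.26 in ird1/ird1 on the log2 scale. Of the 20, 18 were also called in gtf2i/gtf2i against its wild type, where 262 genes were called (2.24%; 114 higher, 0.974%, and 148 lower, 1.26%), and 0 in ird1/ird1, where Gtf2ird1 was the 1 gene called (0.00854%). In ird1/ird1 10 of the 20 had an unadjusted p under 0.05, beside 17% of all genes. The 17% are 1994 genes, a count that was 548 without wild-type replicate 2 of the ird1 comparison. The effects were opposite in sign for 18 of the 20, beside 45.1% of all genes. A gene with opposite effects has a larger difference by construction, so this share is a description of the called genes. Excepting Gtf2i, the called genes with an annotated position lay off chromosome 5.

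**Figure D2:**
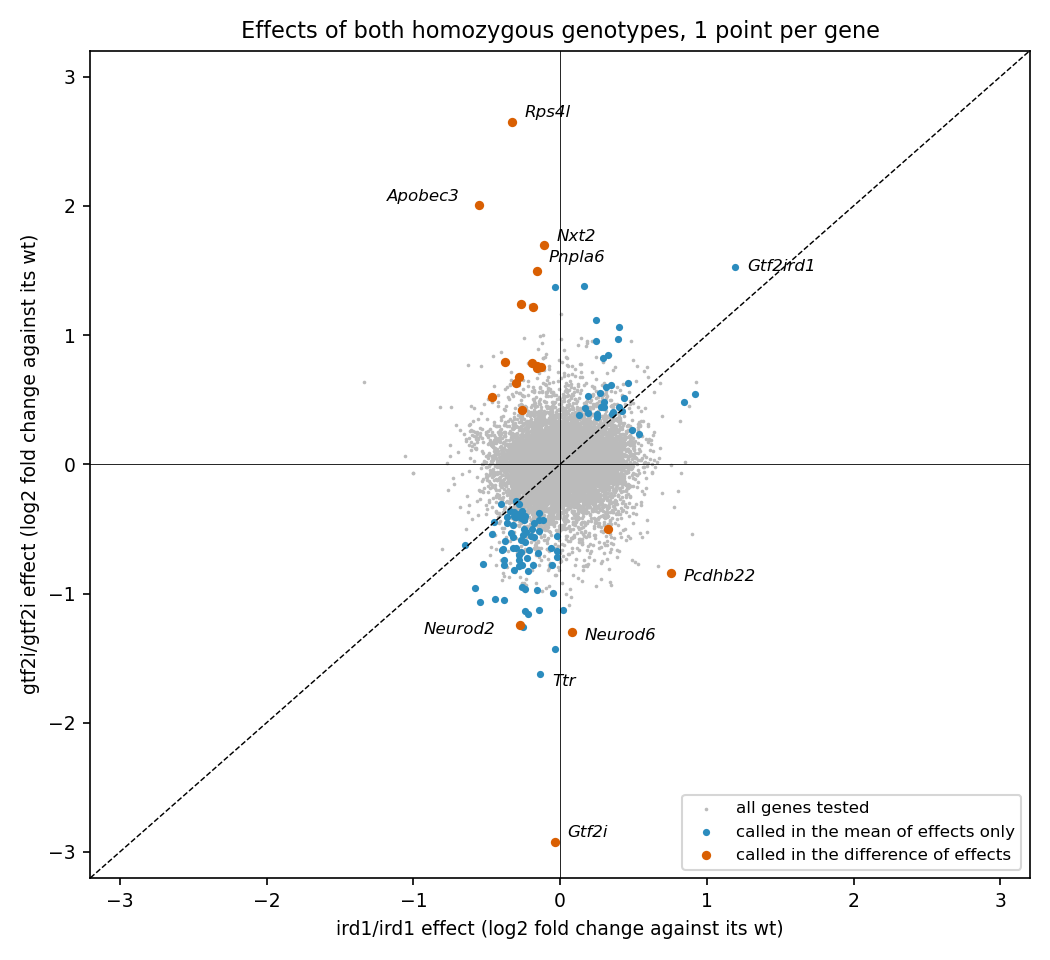
The log2 fold change in gtf2i/gtf2i (vertical axis) against that in ird1/ird1 (horizontal axis), 1 point per gene, with genes called in the difference in orange, genes called only in the mean of effects in blue and equal effects on the dashed line. Orange points spread along the vertical axis, with Rps4l at 2.65 and Gtf2i at -2.92, and Gtf2ird1 lies near the dashed line at 1.53 and 1.19.

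The largest rises in gtf2i/gtf2i that passed the test of the difference were Rps4l, Apobec3, Nxt2 and Pnpla6. Rps4l (ENSMUSG00000063171, chr6:148354656-148355596) is a close copy of the X-linked gene for a small-subunit ribosomal protein and is annotated as a transcribed pseudogene. It stood at 24.3, 20.2 and 23.7 CPM in wild type and at 145, 161 and 126 CPM in gtf2i/gtf2i. In the ird1 comparison it stood at 24.8, 36.9 and 19.9 CPM in wild type and at 25.5, 14.6 and 23.2 CPM in ird1/ird1. Only the gtf2i/gtf2i libraries were high, and the difference was 2.98 (SE 0.276, adjusted p = 3.67e-06). How reads that fit Rps4l and its parent gene were shared out is not given in the sources used here, so its level is uncertain.

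Apobec3 (ENSMUSG00000009585, chr15:79892058-79918218) encodes a cytidine deaminase that restricts retroviruses. It stood at 6.00, 3.59 and 3.80 CPM in the wild type of the gtf2i comparison and at 19.1, 19.6 and 15.6 CPM in gtf2i/gtf2i. In the ird1 comparison the levels were 7.83, 8.23 and 7.92 CPM in wild type and 4.99, 6.50 and 4.58 CPM in ird1/ird1. The groups did not overlap in either comparison and moved in opposite directions, by 2.01 in gtf2i/gtf2i and by -0.56 in ird1/ird1 (unadjusted p = 0.0123, not called). The wild-type groups of Apobec3 did not overlap either, with a log2 ratio of -0.83 between the gtf2i and the ird1 wild type. The difference of effects was 2.56 (SE 0.277, adjusted p = 2.68e-05), and the direct log2 ratio of gtf2i/gtf2i to ird1/ird1 was 1.73.

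Pnpla6 (ENSMUSG00000004565, chr8:3515235-3544267) encodes neuropathy target esterase, a phospholipase of the endoplasmic reticulum. Its levels were 51.0, 45.3 and 48.6 CPM in wild type and 137, 131 and 142 CPM in gtf2i/gtf2i. They were 50.1, 63.5 and 50.0 CPM in the ird1 wild type and 56.4, 43.9 and 44.4 CPM in ird1/ird1. The difference for Pnpla6 was 1.66 (SE 0.161, adjusted p = 5.51e-06), with no overlap in the gtf2i comparison and overlap in the other. Nxt2, a cofactor of nuclear mRNA export, stood at 8.01, 6.99 and 8.96 CPM in wild type and at 27.0, 23.1 and 28.1 CPM in gtf2i/gtf2i. Its ird1/ird1 libraries, at 7.20, 6.50 and 7.22 CPM, lay within the range of their wild type (8.58, 3.62 and 8.88 CPM). The difference for Nxt2 was 1.81 (SE 0.311, adjusted p = 0.0107). It was not called without wild-type replicate 1 or without wild-type replicate 3 of the ird1 comparison, with adjusted p values up to 0.0645.

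Further genes were called as higher. Gas2l1, which links actin to microtubules, went from 29.9, 28.7 and 31.5 CPM to 75.4, 68.6 and 68.7 CPM in gtf2i/gtf2i. Beside that, Gas2l1 stood at 32.8, 46.7 and 35.5 CPM in the ird1 wild type and at 27.3, 34.2 and 32.4 CPM in ird1/ird1, and the difference was 1.50 (SE 0.171, adjusted p = 5.04e-05). Tmem267, a membrane protein, had a difference of 1.40 (SE 0.222, adjusted p = 0.00539), with 43.0 to 52.2 CPM in gtf2i/gtf2i and at most 22.6 CPM in the other homozygous and wild-type libraries. Abca7, a lipid transporter, had a difference of 0.88 and effects of 0.75 and -0.13. Plin3, a coat protein of lipid droplets, had a difference of 1.17 and effects of 0.79 and -0.37.

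Sirt6, a deacylase of chromatin, rose in gtf2i/gtf2i from 57.0, 52.1 and 52.8 CPM to 80.9, 93.1 and 85.6 CPM. Its levels were 60.7, 78.3 and 63.1 CPM in the ird1 wild type and 47.4, 58.5 and 59.2 CPM in ird1/ird1. The libraries of Sirt6 were ordered oppositely in the 2 comparisons without overlap, with a difference of 0.96 (SE 0.165, adjusted p = 0.0107). Zfp335, a zinc finger regulator needed by neural progenitors, had effects of 0.42 and -0.26 and a difference of 0.68 (adjusted p = 0.0296). The call for Zfp335 was lost under 11 of 23 alternatives, with adjusted p values up to 0.116. Cnp, an enzyme best known from myelin, had effects of 0.78 and -0.19, with 32.0, 37.0 and 33.0 CPM in gtf2i/gtf2i and between 18.9 and 23.6 CPM in the other homozygous and wild-type libraries. Igsf8, an immunoglobulin-type membrane protein, had effects of 0.63 and -0.30, Tmem44 of 0.76 and -0.16, and Tep1, a protein of telomerase and vault particles, of 0.74 and -0.16. Gm47283, a gene model with effects of 0.52 and -0.46, and Tep1 had adjusted p values of 0.0496, at the edge of the threshold.

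The 5 called falls were Gtf2i, the gene of the labelled allele, and Neurod6, Neurod2, Pcdhb22 and Plcxd2. Neurod6 (ENSMUSG00000037984, chr6:55677818-55681263) stood at 85.7, 85.8 and 121 CPM in wild type and at 34.5, 36.7 and 47.3 CPM in gtf2i/gtf2i. In the ird1 comparison it stood at 97.6, 76.7 and 97.7 CPM in wild type and at 110, 85.6 and 95.1 CPM in ird1/ird1. The gtf2i/gtf2i libraries were below all others, and the difference for Neurod6 was -1.38 (SE 0.206, adjusted p = 0.00271).

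Neurod2 (ENSMUSG00000038255, chr11:98325415-98329645) stood at 119, 102 and 165 CPM in wild type and at 50.2, 54.3 and 58.4 CPM in gtf2i/gtf2i. Its levels were 134, 167 and 141 CPM in the ird1 wild type and 134, 117 and 112 CPM in ird1/ird1. Neurod2 was lower in both genotypes by point estimate, by -1.25 and by -0.27 (unadjusted p = 0.0487, not called), so it counted both as called in the mean of effects, at -0.76 (adjusted p = 0.000215), and as called in the difference, at -0.97 (SE 0.189, adjusted p = 0.0318). The call of the difference for Neurod2 was lost under 10 of 23 alternatives, with adjusted p values up to 0.146. In bulk tissue, fewer cells of a type and less RNA per cell cannot be told apart.

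Pcdhb22, a protocadherin of the neuronal surface, was low in gtf2i/gtf2i and high in ird1/ird1. Its levels were 10.8, 15.1 and 12.3 CPM in wild type against 8.59, 5.77 and 6.71 CPM in gtf2i/gtf2i, and 6.93, 7.90 and 7.72 CPM in wild type against 12.0, 13.4 and 12.1 CPM in ird1/ird1. The effects on Pcdhb22 were -0.84 and 0.75 and the difference was -1.59 (adjusted p = 0.0496), while neither effect was called by itself. Its wild-type groups did not overlap, with a log2 ratio of 0.77, about as large as either effect. Reads of near-identical protocadherin genes may be split between copies, so this gene is uncertain. Plcxd2, a phospholipase-like enzyme, had effects of -0.50 and 0.33 and a difference of -0.83 (adjusted p = 0.0291), again with groups that did not overlap in either comparison.

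**Figure D3:**
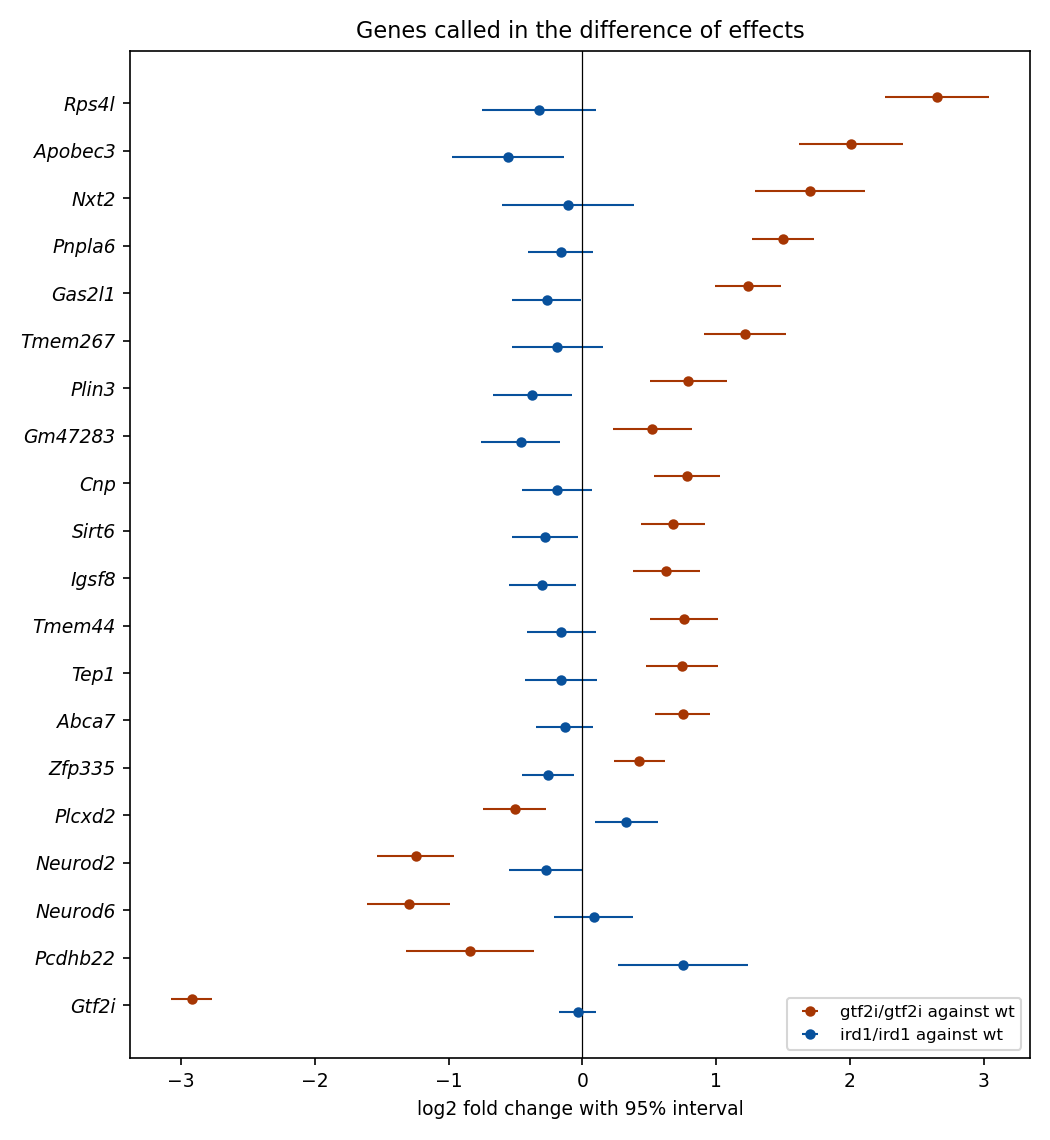
Log2 fold change with its 95% interval (horizontal axis) in gtf2i/gtf2i (brown) and ird1/ird1 (blue) for the 20 genes called in the difference, ordered by the difference. Brown points lie farther from 0 for each gene, from 2.65 for Rps4l to -2.92 for Gtf2i, and blue points lie between -0.56 and 0.75.

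A difference of effects also takes in how the 2 wild-type groups differ, since each homozygous group has its own wild type. For the 20 called genes the libraries of gtf2i/gtf2i and its wild type did not overlap in 20 cases (16.8% of all genes), and those of ird1/ird1 and its wild type in 10 (26.9%). The homozygous groups themselves did not overlap in 20 of 20 (23.4% of all genes), and the wild-type groups in 9 of 20 (32%). The median absolute log2 ratio was 0.87 between the homozygous groups and 0.20 between the wild-type groups, with wild-type ratios up to 0.83 for Apobec3. The wild-type ratio was opposite in sign to the difference in 16 of the 20, which enlarges the difference. Comparing homozygous with wild-type libraries that share a title number, all 6 combinations of a gtf2i and an ird1 number gave the same sign for 20 of the 20 genes (34.2% of all genes). The genes were chosen by the difference in these same libraries, so these counts of overlap and sign describe the calls and do not add to them. Across the alternatives in which they were tested, 8 genes were called every time: Gtf2i, Rps4l, Pnpla6, Apobec3, Gas2l1, Neurod6, Tmem267 and Abca7. The other 12 were lost in at least 1, with Gm47283 lost in 13 of 23. Pcdhb22 was lost in 12 of 22, and Plcxd2, Zfp335 and Tep1 in 11 of 23. Neurod2 was lost in 10, Tmem44 in 9, Igsf8 in 8, Cnp in 4, Nxt2 in 2, and Plin3 and Sirt6 in 1.

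The X-linked gene Kdm5c, whose level tends to be higher in females, moved with the groups of the gtf2i comparison. It stood at 286, 303 and 287 CPM in wild type and at 314, 397 and 384 CPM in gtf2i/gtf2i, without overlap. It stood at 269, 404 and 376 CPM in the ird1 wild type and at 289, 379 and 350 CPM in ird1/ird1. The labels do not give the sex of the embryos, and the table held 0 of 5 genes specific to one sex. With the level of Kdm5c as a covariate, 9 genes were called in the difference: the 8 named above and Nxt2. For Kdm6a, another X-linked gene with a Y homologue, the effects were 0.40 and 0.12 and neither was called.

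Just outside the threshold stood 48 genes with an adjusted p between 0.05 and 0.1 in the difference, 22 of them higher. With the 20 inside they make 68 genes (0.581%). The first 10 by p, given as values, were Nfib (-1.15), Wnt9a (1.22), Ppp2r2b (-1.05), Hes5 (0.79), Tnc (-1.40), Sv2b (-0.94), Efna2 (0.69), Bbc3 (0.85), H19 (0.75) and Reln (-0.65), all in log2 difference. Their adjusted p values were 0.0502 to 0.0538, beside 0.0496 for the last genes inside. Nfib, a regulator of glial and cortical development, stood at 327, 347 and 454 CPM in wild type and at 190, 195 and 257 CPM in gtf2i/gtf2i, and at 366, 211 and 328 CPM against 426, 372 and 347 CPM in the ird1 comparison. Reln, the secreted guide of cortical layering, fell in gtf2i/gtf2i from 452, 466 and 537 CPM to 304, 271 and 337 CPM (adjusted p = 0.000825). In ird1/ird1 Reln stood at 471, 415 and 385 CPM against 438, 424 and 426 CPM in wild type. Hes5, a target of Notch signalling in radial glia, had effects of 0.42 and -0.37, neither called. Each of these 10 genes was called with the replicate block, Nfib at its lowest adjusted p of 0.00138 over the alternatives.

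The other side of the contrast is the mean of both effects, which asks for a response in common. It was called for 116 genes (0.991% of those tested), 38 higher (0.325%) and 78 lower (0.666%). With the replicate block 272 were called. The count was 371 with DESeq2 and 47 when only the 12 libraries were fitted, and it ran from 18 to 365 when single libraries were left out. A call in the mean need not be a shared response: 108 of the 116 had the larger absolute effect in gtf2i/gtf2i, and 10 were also called in the difference. Of the 116, 106 had effects of the same sign, and 57 had an unadjusted p under 0.05 in each genotype with the same sign (1.48% of all genes met the latter condition). The selection by the mean favours equal signs, so these shares are descriptions.

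Among the 10 largest rises and the 10 largest falls in the mean, several were carried by gtf2i/gtf2i. Ttr, the thyroxine carrier made by choroid plexus, stood at 170, 231 and 238 CPM in wild type and at 62.7, 60.3 and 84.1 CPM in gtf2i/gtf2i. Ttr stood at 235, 287 and 238 CPM in the ird1 wild type and at 289, 208 and 192 CPM in ird1/ird1. The gtf2i/gtf2i libraries alone were low, with effects of -1.62 and -0.14 and a mean of -0.88 (adjusted p = 0.0162). The difference for Ttr was -1.48 and was not called (adjusted p = 0.0831), but was with the replicate block. The falls in the mean for Tnc, an extracellular matrix protein of radial glia, and for Aldoc, a glycolytic enzyme of the same cells, rested on effects of -1.43 and -1.26 in gtf2i/gtf2i beside -0.03 and -0.25 in ird1/ird1. The radial glia list that holds both had a median effect of 0.17 in gtf2i/gtf2i. Of its 20 genes, 2 were called higher there (0.974% of all genes) and 2 lower (1.26%). Its sum was 4209 to 4752 CPM in gtf2i/gtf2i against 3645 to 4043 CPM in wild type. Tiam2, an activator of Rac, had effects of -1.15 and -0.22, and Hsd3b6, a steroid dehydrogenase, of 1.38 and 0.16. The call in the mean was lost under 6 of 23 alternatives for Ttr, 7 for Tnc and 6 for Tiam2.

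Other members of that group had effects nearer to each other. Nxph3, a neurexin ligand, stood at 8.84, 7.37 and 6.51 CPM in wild type and at 4.12, 3.23 and 3.36 CPM in gtf2i/gtf2i. Nxph3 stood at 10.1, 11.2 and 9.85 CPM in the ird1 wild type and at 7.89, 6.90 and 6.16 CPM in ird1/ird1. Both homozygous groups lay below their own wild type without overlap, with effects of -1.07 and -0.55 and a mean of -0.81 (adjusted p = 0.00498). The difference for Nxph3 was -0.52, with an interval from -1.07 to 0.03. Gm13889 had effects of -0.96 and -0.58, Sncb, a synuclein, of -1.05 and -0.38, and Hpca, a neuronal calcium sensor, of -1.05 and -0.44. The call in the mean was lost under 7 of 23 alternatives for Hpca.

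Of the rises in the mean, Afap1l2, an actin-associated adaptor, had effects of 1.06 and 0.40, Hmga2, a chromatin protein of progenitors, of 0.97 and 0.39, and the gene model Gm38534 of 1.12 and 0.25. Jpx, a noncoding RNA of the X inactivation centre, had effects of 0.55 and 0.92, with the larger value in ird1/ird1, and a mean of 0.73 (adjusted p = 0.0444). The call in the mean was lost under 12 of 22 alternatives for Jpx (adjusted p up to 0.138) and under 13 of 23 for Hmga2 (up to 0.144). Jpx stood at 7.00, 7.37 and 5.29 CPM against 8.59, 10.2 and 9.77 CPM in gtf2i/gtf2i, and at 4.97, 6.25 and 8.11 CPM against 10.8, 11.7 and 13.9 CPM in ird1/ird1. Kdm5c moved in the gtf2i comparison as given above. The fit with Kdm5c as a covariate was 1 of the 12 alternatives that lost the call for Jpx. The cause of that loss was not tested.

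**Figure D4:**
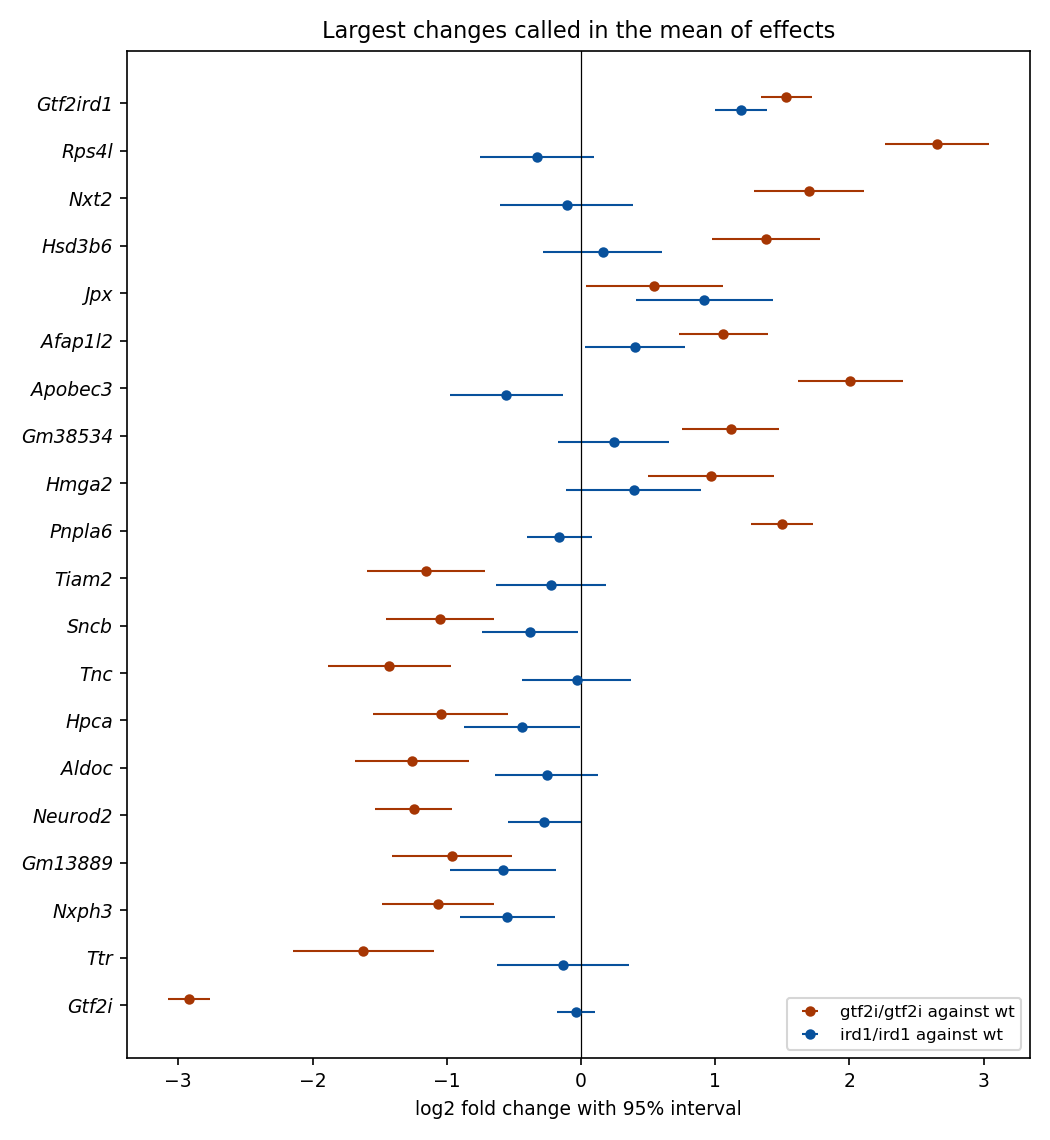
Log2 fold change with its 95% interval (horizontal axis) in gtf2i/gtf2i (brown) and ird1/ird1 (blue) for the 10 largest rises and the 10 largest falls called in the mean of effects. Intervals of the 2 genotypes overlap for Gm13889, Nxph3, Jpx and others, and lie apart for genes such as Rps4l, Apobec3 and Gtf2i.

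To find responses of like size, a stricter description was added after the values were seen: called in the mean, an unadjusted p under 0.05 in each genotype with the same sign, and a 95% interval of the difference within 0.5 of 0 on the log2 scale. It left 27 genes, 9 higher and 18 lower, with mean effects between 0.29 and 0.48 in size. Libraries did not overlap with their wild type in gtf2i/gtf2i for 27 of them (16.8% of all genes) and in ird1/ird1 for 24 (26.9%), which the condition on each p favours. The wild-type groups did not overlap for 21 of the 27 (32% of all genes). In all 27 the gtf2i wild type lay from the ird1 wild type in the direction of the effect, with a median log2 distance of 0.32 against 0.22 over all genes. The ird1/ird1 levels overlapped those of the gtf2i wild type for 26 of the 27, a share near the 91.4% of all genes. A response to ird1/ird1 and a high or low ird1 wild type cannot be told apart for these genes. Among the falls other than Dlx2, Ltbp3 and Mmd2, replicate 2 was the highest of the ird1 wild-type libraries. Ankrd13b stood at 223, 310 and 209 CPM there, and Fam171a2 at 348, 468 and 330 CPM. Without that library 548 genes had an unadjusted p under 0.05 in ird1/ird1, against 1994. The 27 were not drawn again with single libraries left out. Heterozygous gtf2i had the same sign as the mean effect in 10 of the 27 and heterozygous ird1 in 27, each against the wild-type libraries already used. Because the interval had to be narrow, this selects well-measured genes. For 3880 genes (33.1%) the interval of the difference lay within 0.5 of 0, and for 10346 (88.4%) within 1, so these data bound the difference for most genes only to that size.

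Nhlh2, a neuronal basic helix-loop-helix factor, was the highest of the 27. It stood at 77.0, 85.4 and 81.6 CPM in wild type and at 99.1, 125 and 125 CPM in gtf2i/gtf2i. Nhlh2 stood at 57.7, 51.3 and 63.0 CPM in the ird1 wild type and at 74.8, 77.6 and 81.9 CPM in ird1/ird1. Each homozygous group lay above its own wild type, with effects of 0.51 and 0.44 and a difference of 0.08 (interval from -0.24 to 0.39). The ird1/ird1 levels of Nhlh2 lay near those of the gtf2i wild type.

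Lgr4, a receptor of R-spondins that strengthens Wnt signalling, had effects of 0.41 and 0.42, and Wls, which carries Wnt proteins to the cell surface, of 0.39 and 0.25. Lrrn1, a leucine-rich membrane protein, had 0.39 and 0.36. Kif15, a mitotic kinesin, had 0.40 and 0.36. The falls included Dlx1 and Dlx2, homeodomain factors of ventral forebrain interneurons, with effects of -0.40 and -0.24 for Dlx1 and of -0.40 and -0.26 for Dlx2. Dlx1 stood at 205, 195 and 174 CPM against 157, 140 and 136 CPM in gtf2i/gtf2i, and at 199, 236 and 199 CPM against 163, 193 and 179 CPM in ird1/ird1. Its groups did not overlap in either comparison. The list of ventral telencephalic markers that holds both had a median mean effect of -0.05. Thra, a thyroid hormone receptor, had effects of -0.43 and -0.24. Islr2, a membrane protein of growing axons, had -0.36 and -0.34, and Bok, a relative of the apoptosis regulator BCL2, had -0.45 and -0.45. Bok stood at 46.8, 49.9 and 42.4 CPM in ird1/ird1, below the 58.1, 80.3 and 54.3 CPM of its own wild type and near the 48.9, 38.5 and 45.2 CPM of the gtf2i wild type.

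Across all genes the 2 sets of effects were almost unrelated in size. Over the 11708 genes, which share libraries and are not independent replicates, Pearson's r was 0.087 and Spearman's rho 0.106. A p under 0.05 before adjustment was found for 1732 genes (14.8%) in gtf2i/gtf2i and 1994 (17%) in the other genotype, and 230 genes had both, 13.3% of the first list and 11.5% of the second. Of these 173 moved in the same direction, 71 up and 102 down, and 57 in opposite directions (0.487% of all genes). The ird1/ird1 count was 548 without wild-type replicate 2 of the ird1 comparison and 2684 without replicate 1. The overlap was not recounted in those fits. Of the 147 called falls other than Gtf2i, 105 (71.4%) were also lower in ird1/ird1, where 48.9% of all genes were lower, with medians of -0.65 and -0.12. Of the 113 called rises other than Gtf2ird1, 60 (53.1%) were higher in ird1/ird1, where 51.1% of all genes were, with medians of 0.63 and 0.02. No test was made of that difference between rises and falls.

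The gene lists were read by their counts and medians, beside a median difference of -0.0099 over all genes with 48.4% higher. The markers of dorsal telencephalon and cortical neurons stood lowest in the main fit, with a median difference of -0.56 and 22 of 24 lower. Called were 2, Neurod2 and Neurod6 (0.171% of all genes), and 8 with the replicate block (0.709% of all genes), while 17 had an unadjusted p under 0.05 (13% of all genes), 16 of them lower. In gtf2i/gtf2i 12 of the 24 fell (1.26% of all genes), among them Tbr1 (-0.65, adjusted p = 0.00166), Nfix (-0.97, adjusted p = 0.000432) and Bcl11b (-0.66, adjusted p = 0.00654). None of the 24 (0) was called in ird1/ird1, where the median was 0.04. The summed level of the list was 2572, 2606 and 2750 CPM in gtf2i/gtf2i, below the 3499 to 4198 CPM of its wild type. In ird1/ird1 it was 3643 to 3866 CPM, within 3426 to 3853 CPM of wild type or just above.

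Not all dorsal markers took part. Neurog2, which commits progenitors to excitatory neurons, had a difference of 0.07, Pax6, the master regulator of cortical radial glia, of -0.06, Emx2 of -0.08 and Lhx2 of -0.13. Neurog1 had one of 0.55. Bhlhe22, a factor of postmitotic cortical neurons, had one of -0.70. Leaving out single libraries kept the median of the list between -0.62 and -0.48, and called 1 to 14 members, with 14 called without gtf2i/gtf2i replicate 3 (6.18% of all genes). The list did not stay lowest in every fit. Without gtf2i/gtf2i replicate 3 it stood at -0.58 and the protocadherins at -0.64. Without wild-type replicate 3 of the ird1 comparison it stood at -0.59 and the mitochondrially encoded genes at -0.62.

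The pan-neuronal list had a median difference of -0.32, with 22 of 25 lower, 0 called (1 with the replicate block, which called 0.709% of all genes) and 8 with an unadjusted p under 0.05 (13% of all genes). Its median effects were -0.20 and 0.10. Its summed level in gtf2i/gtf2i was 7909 and 8093 CPM in replicates 1 and 2 and 10654 CPM in replicate 3, the library whose removal raised the count of called differences to 723. Wild type stood at 9634 to 10859 CPM. Without that library 11 of the 25 were called, beside 6.18% of all genes, and the median of the list was -0.51. The median was -0.21 without gtf2i/gtf2i replicate 1 and -0.26 without replicate 2, with 0 called in each. Mapt, which encodes tau, showed the same spread, with 396, 404 and 634 CPM in gtf2i/gtf2i and 671 to 834 CPM in wild type. It was called in gtf2i/gtf2i (adjusted p = 0.0261) and not in the difference (adjusted p = 0.236).

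The clustered protocadherins, cell surface proteins that give neurons an identity, had a median difference of -0.44. Of the 29 measured, 27 were lower. At an unadjusted p under 0.05 there stood 14 lower and 1 higher (13% of all genes in both directions), and Pcdhb22 alone was called (0.171% of all genes). The call of Pcdhb22 was lost under 12 of 22 alternatives, with adjusted p values up to 0.175. With the replicate block 4 members were called (0.709% of all genes), and 8 without gtf2i/gtf2i replicate 3 (6.18%). With a mean of at least 10 CPM required, 14 members remained, 12 of them lower. Their median difference was -0.26, and 0 were called (0.174% of all genes in that fit). Pcdhb16 had effects of -1.28 and 0.24, Pcdhb21 of -0.77 and 0.53 and Pcdhb18 of -0.78 and 0.67. The median effects of the 29 were -0.51 and 0.05. These genes lie in 1 cluster, share sequence and sometimes exons, and are not independent of one another.

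The cytosolic ribosomal proteins had a median difference of 0.29 with 62 of 70 higher and 0 called. At an unadjusted p under 0.05 there were 21 of the 70 (13% of all genes), each higher, and 10 were called without gtf2i/gtf2i replicate 3 (6.18% of all genes). The median was 0.10 with 48 of 70 higher when a trend with transcript length was removed. The trend was general: over all genes the difference correlated with length at a rho of -0.367, the ird1/ird1 effect at 0.427 and the gtf2i/gtf2i effect at -0.048. Axon guidance genes went from a median of -0.17 to -0.06 when it was removed, to -0.09 without gtf2i/gtf2i replicate 1 and to -0.10 without wild-type replicate 3 of the gtf2i comparison, and 7 were called without gtf2i/gtf2i replicate 3 (6.18% of all genes). With the length trend removed, the dorsal telencephalic list stood at -0.49 and the protocadherins at -0.45. Cell cycle genes had a median of 0.21 with 22 of 26 higher and 0 called, and Ccnb2, a mitotic cyclin, had effects of 0.54 (adjusted p = 0.0269) and 0.02. The cell cycle median was 0.11 with 18 of 26 higher without gtf2i/gtf2i replicate 1 and 0.12 with 17 of 26 higher without wild-type replicate 3 of the ird1 comparison, and 4 genes were called without gtf2i/gtf2i replicate 3 (6.18% of all genes). Radial glia markers had a median of -0.01, with 4 higher and 4 lower at an unadjusted p under 0.05 (13% of all genes), Hes5 among the first and Tnc among the second. Of the 20, 0 were called, 3 with DESeq2 (0.717% of all genes), 4 with the replicate block (0.709%) and 6 without gtf2i/gtf2i replicate 3 (6.18%), and the median was 0.09 without wild-type replicate 2 of the ird1 comparison.

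Lists for other tissue in the dissection also varied. Red blood cell genes had a median difference of 0.39 with 8 of 11 higher and 0 called, and their sum was 5954, 9343 and 7057 CPM in gtf2i/gtf2i against 4252 to 5443 CPM in wild type. The median was 0.67 without ird1/ird1 replicate 1, 0.22 without replicate 2 and 0.23 without replicate 3 of that group, and 0.23 without wild-type replicate 3 of the ird1 comparison. Mesenchyme had a median of 0.17 with 13 of 18 higher, and endothelium of -0.09 with 6 of 15 higher, each with 0 called. Mesenchyme moved to 0.03 without gtf2i/gtf2i replicate 2 and to 0.08 without ird1/ird1 replicate 1, and endothelium to 0.03 without wild-type replicate 1 of the gtf2i comparison. Ventral telencephalic markers had a median of -0.09 and midbrain and hindbrain markers of 0.10, with 0 called in each. Both directions turned with single libraries: the ventral median was 0.05 without wild-type replicate 1 of the gtf2i comparison, and the midbrain and hindbrain median was -0.05 without gtf2i/gtf2i replicate 3 and -0.01 without wild-type replicate 1 of the ird1 comparison. The choroid plexus and roof plate list had a median of 0.07 with 9 of 15 higher and 0 called, while Ttr was called with the replicate block. Its sum was 391 to 425 CPM in gtf2i/gtf2i against 460 to 552 CPM in wild type, and without Ttr it was 331 to 355 CPM against 289 to 321 CPM, a sum added after the values were seen. Its median was -0.02 without wild-type replicate 3 of the gtf2i comparison. The part of such tissue in the results was not tested. The 7 mitochondrially encoded genes were all lower in the difference, with a median of -0.38 and 0 called. Their sum was 2301 CPM in wild-type replicate 2 of the ird1 comparison against 6010 and 6701 CPM in the other 2, and without that library the median was -0.02 with 2 of 7 higher.

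**Figure D5:**
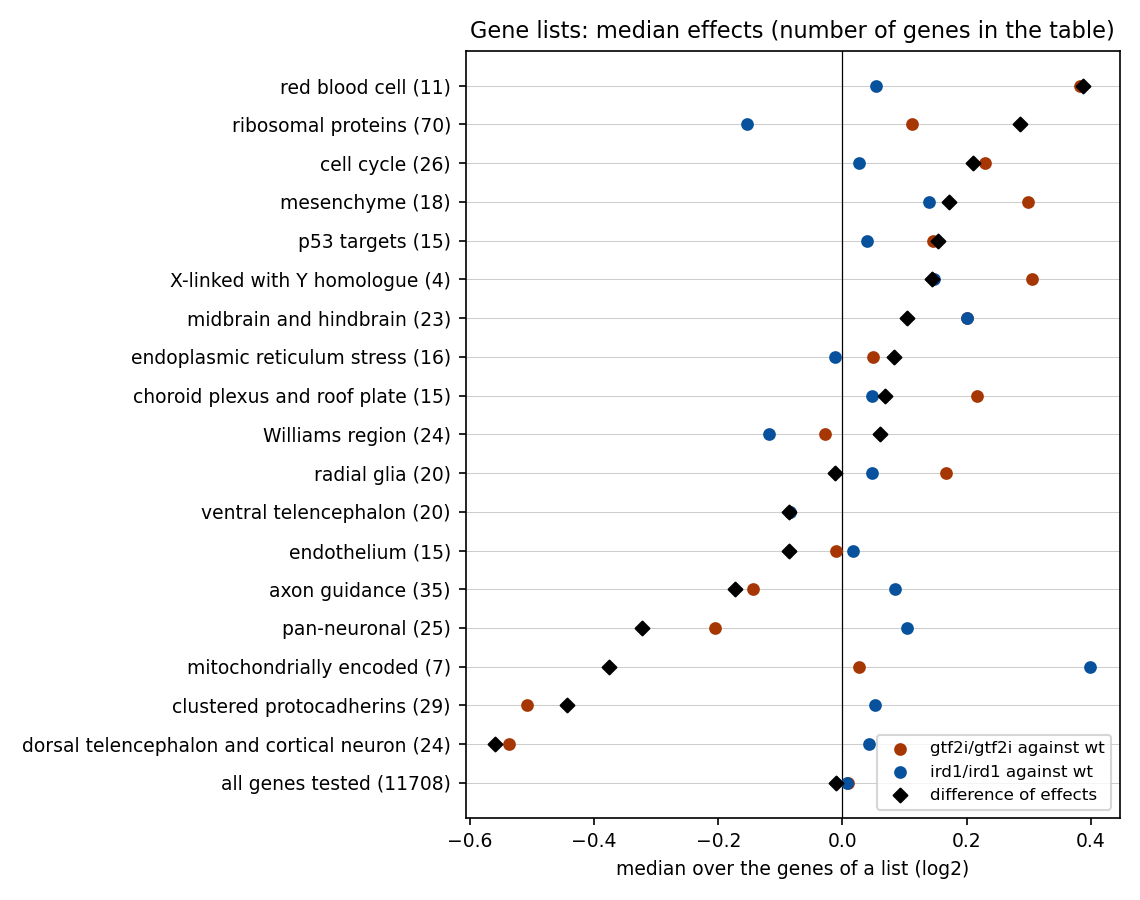
Median log2 effect over the genes of each list (horizontal axis) in gtf2i/gtf2i (brown), in ird1/ird1 (blue) and in the difference (black diamonds), with the number of genes in brackets. Dorsal telencephalic genes lie lowest at -0.56, with protocadherins at -0.44, while all genes tested lie at about 0.

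Of 7 genes reported as targets of these proteins 3 were in the table, and 0 of them were called in the difference. Ccnd1, a cyclin of the G1 phase, had effects of 0.56 and -0.05 and a difference of 0.61 (adjusted p = 0.179). It was called in gtf2i/gtf2i (adjusted p = 0.0198). Kdr, a receptor for vascular growth factor, had effects of 0.15 and 0.07. Of the 24 genes listed for the Williams region and in the table, Gtf2i was the 1 called in the difference. The median was 0.06, 0.01 without wild-type replicate 2 of the ird1 comparison and 0.12 without wild-type replicate 1 of the gtf2i comparison. Caln1, a calcium-binding protein of the brain, stood at 7.50, 6.61 and 9.36 CPM in wild type and at 2.92, 3.70 and 4.88 CPM in gtf2i/gtf2i. It stood at 7.23, 8.56 and 6.18 CPM against 8.03, 7.70 and 6.87 CPM in ird1/ird1. Its effects were -1.03 and 0.08 and its difference of -1.10 was not called (adjusted p = 0.127). Caln1 lies at chr5:130369404-130846325, apart from the Gtf2i family, and the sources used here do not say whether the deleted segment holds it. With the replicate block, whose numbers pair libraries in the gtf2i comparison, Caln1 and Ccnd1 were called. The list of the Williams region then held 2 called genes of 24 (0.709% of all genes).

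The same contrast between the heterozygous groups uses the same wild-type libraries, so the values are set side by side. It was called for 2 genes (0.0171%), Gtf2i at -0.72 and Apobec3 at 1.87. Apobec3 stood at 11.2, 11.5 and 9.64 CPM in heterozygous gtf2i, between its wild type and gtf2i/gtf2i without overlap, and at 4.85, 5.00 and 5.84 CPM in heterozygous ird1. The call for Apobec3 rested on single libraries: 1 gene was called, Gtf2i, without wild-type replicate 2 or 3 of the gtf2i comparison or without wild-type replicate 1 of the ird1 comparison. Gtf2ird1 had effects of 0.55 and 0.61 in the heterozygous groups and a difference of -0.06. Of the 20 genes called in the homozygous difference 14 had the same sign here, with a median absolute value of 0.21 against 1.08.

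Most of the large homozygous differences were small at that dose. Rps4l stood at 13.1, 17.0 and 18.3 CPM in heterozygous gtf2i, below its wild type, and its heterozygous difference was -0.46. Pnpla6 stood at 50.1, 54.5 and 59.4 CPM, with a heterozygous difference of 0.11 against 1.66. Neurod6 stood at 112, 119 and 110 CPM, with 0.41 against -1.38, and Neurod2 at 134, 152 and 148 CPM, with 0.33 against -0.97. The heterozygous and homozygous gtf2i libraries did not overlap for 19 of the 20 genes (19.2% of all genes), and the heterozygous and wild-type libraries did not for 4 (7.27%).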

How the data were processed

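RNA sequencing counts from 18 whole brains at E13.5, in 6 groups of 3, were used. The authors deposited raw counts of reads for each gene, as whole numbers. The submitters' processing notes name Trimmomatic, STAR, HTSeq and the build mm10, without versions. Per the labels' protocols, ribosomal RNA was depleted before library preparation, and the strand setting is not given in the sources used here. The smallest count per library was 2.90 to 3.09 CPM, so genes under a minimum in any library had been removed and a gene silent in 1 group could not be tested. The deposited table also gave a transcript length, used only to describe and remove length trends. Totals were 3239117 to 7371483 counts per library. The smallest count of 10 carries a counting error of 31.6%, which covers counting error only.

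Counts were scaled by TMM, filtered with filterByExpr (0 genes removed) and compared by the quasi-likelihood test of edgeR with Benjamini-Hochberg adjustment over all 11708 genes, on all 18 libraries with 6 groups and 12 residual degrees of freedom. Called means an adjusted p under 0.05. The software was R 4.3.3, edgeR 4.0.16, limma 3.58.1 and DESeq2 1.42.0, and the fits were tested on simulated data. Intervals are 95%. Biological variation was 10.2%, and the median SE of a difference was 0.192 on the log2 scale. No 2 libraries of a group agreed within counting noise (18 pairs, chi-square over degrees of freedom 2.90 to 29.5). The labels do not say that the libraries of a group came from separate litters, so p-values measure the spread between these libraries.

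Named genes were the Gtf2i family, every gene called in the difference, the 10 largest rises and falls called in the mean, the first 10 just outside the threshold and the first 2 of each list by p. Other genes named, those of like effect in both genotypes and further members of the dorsal, protocadherin, neuronal and target lists, were chosen after their values were seen. Members, lists and this rule were chosen with earlier results of these data known. The number that opens a sample title, whose meaning the labels do not give, was used as a block in an alternative: deviations of homozygous and wild-type libraries with the same number correlated at 0.377, 0.103 and 0.520 in the gtf2i comparison, and at 0.130 and 0.052 in the other. Alternatives were another scaling, DESeq2, limma-voom, a robust spread, other filters, the 12 libraries alone, the block, removal of a length trend, Kdm5c as a covariate and each library left out. Of the identifiers, 11704 were found in a table of gene names and 9097 genes had a promoter in RefSeq, GRCm38.p6. Promoter windows were searched on both strands for the GTF2IRD1 motif and for E-boxes, of which the palindromic form is also counted by the general one. The 32 chromatin samples were not analysed here.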

Additional observations from a re-analysis of the deposited data

How the results depend on the processing

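The count of genes called in the difference, 20, was 84 with DESeq2, 83 with the replicate block, 33 with the length trend removed, 77 with both and 9 with Kdm5c as a covariate, and ran from 12 to 723 when single libraries were left out. The share of rises fell from 75% to 52.4% with DESeq2, 54.2% with the block, 58.4% with both and 38.7% without gtf2i/gtf2i replicate 3. The count for the mean of effects, 116, was 371 with DESeq2, 47 with the 12 libraries alone, 272 under the block, 215 after removing the length trend, 399 with both and 21 with Kdm5c, and ran from 18 to 365. The count for gtf2i/gtf2i, 262, was 434 with DESeq2, 128 with the 12 libraries, 446 with the block, 554 when the length trend was removed as well and 49 with Kdm5c, and ran from 58 to 970. The count for ird1/ird1 was 1 in all fits run. Its count before adjustment, 1994, ran from 548 to 2684 when single libraries were left out. The count for the heterozygous difference, 2, was 1 with a mean of at least 10 CPM, 1 with Kdm5c, and 1 or 2 with single libraries left out. Among single genes, Kdm6a turned its sign with Kdm5c as a covariate, to -0.0922. The cause of these changes was not tested. The block took away none of the 20 calls of the difference. A fit that left out 1 library kept 2 in its group, whose spread was estimated with the other groups. With 3 libraries a group, the median gene's difference was known to within 0.40 on the log2 scale.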

Other observations

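The 2 wild-type groups, which share a genotype label, differed more often than the gtf2i/gtf2i group did from its wild type by the count of genes without overlap: 3742 genes (32%) against 1967 (16.8%). Between the wild-type groups edgeR gave 3827 genes with an unadjusted p under 0.05 and 0 with an adjusted one, while gtf2i/gtf2i against ird1/ird1 gave 1914 and 345. The median difference of effects ran from 0.18 for the 1111 genes with transcripts up to 1500 bases to -0.14 for the 3073 genes with transcripts over 5000 bases. Gm47283, a rise at the edge of the threshold, showed a wild-type ratio of -0.66 beside an effect of 0.52 in gtf2i/gtf2i and -0.46 in ird1/ird1. These are values, and their causes were not tested.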
